A study of Homo sapiens with 6 samples.

Results

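The genes described here are 9 of the heme synthesis pathway, 7 enzymes (ALAS1, ALAD, UROS, UROD, CPOX, PPOX and FECH) and 2 proteins of the inner mitochondrial membrane (SLC25A38 and ABCB10), out of 33514 gene symbols in the count tables. They were chosen by name for their place in the pathway, and all 9 were among the 16209 genes tested. Heme, the iron-porphyrin group of hemoglobin, cytochromes and many other proteins, is made in a chain of steps that starts and ends in mitochondria. ALAS1 joins glycine and succinyl-CoA to 5-aminolevulinic acid, the slow step outside red cells. Enzymes of the cytosol build the porphyrin ring from this product. CPOX, PPOX and FECH finish the ring in mitochondria and insert the iron. Heme is known to restrain its own synthesis at ALAS1, by lowering the messenger RNA and its stability, by blocking import of the protein into mitochondria and by promoting its breakdown there.

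PC3 is a human prostate cancer cell line that came from a bone metastasis, grown in RPMI medium with serum. It was sequenced in bulk in 3 groups of 2 libraries: without treatment, and 2 h or 4 h after heme at 50 µM was added to the medium. The libraries held 53129375 to 55537611 reads in genes, and no label describes the replicates as separate cultures, so a p-value here measures only how far these libraries vary, possibly for technical reasons. Values are CPM, the reads of a gene set against the size of its library, which the TMM method adjusts, and changes are log2 fold changes with their standard error (SE) from edgeR, n = 2 libraries per group. A gene is called where edgeR's adjusted p over all tested genes is under 0.05.

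The epithelial markers KRT8, KRT18, KRT19, EPCAM and CDH1 summed to between 2134 and 2429 CPM in every library, while the luminal prostate markers KLK3 and FOLH1 had 0 counts in all 6. ALAS2, the red cell form of ALAS1, had between 1 and 9 counts in a library and was not tested. The 12 red cell markers, ALAS2 among them, summed to at most 0.282 CPM, and the globin genes HBA1, HBA2, HBB, HBG1 and HBD were at 0 counts throughout. HMOX1, the enzyme that degrades heme, was at 10.4 and 11.4 CPM in the control libraries, 451 and 327 CPM at 2 h, and 382 and 341 CPM at 4 h. All 4 treated libraries thus lay far above both controls for this gene.

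At 2 h, 4 of the 9 genes were lower than in control (ALAS1, SLC25A38, ABCB10 and CPOX), 2 were higher (ALAD and PPOX) and 3 were not called (UROS, UROD and FECH). Among all tested genes, 15.8% were called lower and 15.9% higher in this comparison. At 4 h, ALAS1 was lower and none of the other 8 was called, against 0.00617% of all genes called lower and 0.0247% higher. The count of 0 higher members at 4 h was also 0 at an unadjusted p under 0.05 in edgeR and 0 in DESeq2. The median log2 change of the 9 was -0.15 at 2 h and 0.04 at 4 h, beside medians of 0.02 and -0.0028 over all genes tested. Both comparisons use the same 2 control libraries, whose titles give no time and name no vehicle. An effect of heme therefore cannot be told apart from one of time or handling. The libraries of the 2 groups did not overlap for 9 of 9 genes at 2 h (67.8% of all genes) and for 5 of 9 at 4 h (34.4% of all genes). In bulk RNA, less RNA per cell and fewer cells of a kind cannot be told apart.

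**Figure D1:**
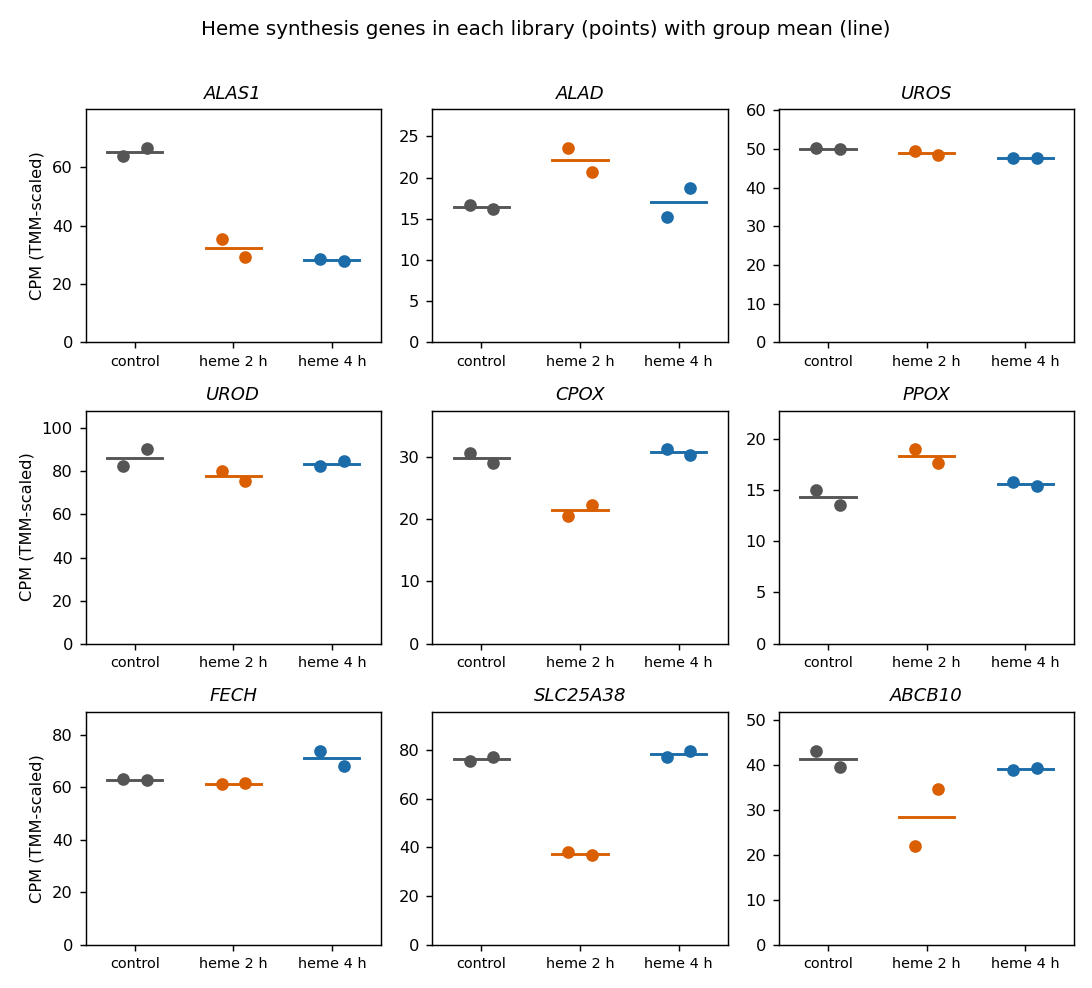
Each panel shows 1 gene, with the 2 libraries of each group as points, the group mean as a line and TMM-scaled CPM on an axis that starts at 0. ALAS1 was at 63.8 and 66.6 CPM in the controls and stayed between 27.8 and 35.4 CPM in all 4 heme libraries, whereas SLC25A38 was near 37 to 38 CPM at 2 h only.

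The DNA upstream of the 4 genes that fell at 2 h is shown because the series concerns heme and G-quadruplexes, folds of guanine-rich DNA. These 4 were picked for being called lower at 2 h, and at 4 h ALAS1 alone of them was called. Each sequence is the 250 bases before the transcription start that RefSeq gives on GRCh38.p14, 5′ to 3′ on the strand of the gene. A promoter sequence was at hand for 8 of the 9 genes, UROS being the exception. The windows are chr3:52197833-52198082 for ALAS1 (plus strand), chr3:39383120-39383369 for SLC25A38 (plus strand), chr3:98593612-98593861 for CPOX (minus strand) and chr1:229558708-229558957 for ABCB10 (minus strand). Capitals mark the matches to the 6 patterns searched on both strands, and other bases are in lower case.
ALAS1: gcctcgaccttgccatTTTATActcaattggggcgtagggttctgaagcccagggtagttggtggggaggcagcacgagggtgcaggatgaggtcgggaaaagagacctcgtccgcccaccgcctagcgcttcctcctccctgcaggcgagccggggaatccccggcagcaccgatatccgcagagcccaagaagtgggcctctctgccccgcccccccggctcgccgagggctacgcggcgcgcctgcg
SLC25A38: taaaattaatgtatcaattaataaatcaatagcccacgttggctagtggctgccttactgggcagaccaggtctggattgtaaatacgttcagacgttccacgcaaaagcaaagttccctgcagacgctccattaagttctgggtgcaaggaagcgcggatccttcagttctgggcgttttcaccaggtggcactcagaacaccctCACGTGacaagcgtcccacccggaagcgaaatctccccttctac
CPOX: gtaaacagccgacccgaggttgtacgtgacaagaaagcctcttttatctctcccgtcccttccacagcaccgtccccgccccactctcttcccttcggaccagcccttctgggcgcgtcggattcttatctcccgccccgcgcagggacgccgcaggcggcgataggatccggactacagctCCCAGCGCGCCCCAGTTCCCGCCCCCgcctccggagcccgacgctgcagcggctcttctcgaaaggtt
ABCB10: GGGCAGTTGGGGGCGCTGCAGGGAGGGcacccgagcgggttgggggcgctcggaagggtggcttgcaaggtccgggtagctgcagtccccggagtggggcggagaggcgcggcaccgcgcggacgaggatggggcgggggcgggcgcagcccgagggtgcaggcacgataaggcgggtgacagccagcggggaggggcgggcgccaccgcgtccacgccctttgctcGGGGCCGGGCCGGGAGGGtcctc
The patterns were the NRF1 core TGCGCATGC, the E-box CACGTG, the cyclic AMP element TGACGTCA, the antioxidant element TGACNNNGC, the letters TATAAA, and the G-quadruplex pattern, 4 runs of at least 3 G with loops of 1 to 7 bases. The G-quadruplex pattern was found in 2 of the 8 windows, CPOX (1 match, on the opposite strand, 68 to 43 bases before the start) and ABCB10 (2 matches, of which the nearer lay 23 to 6 bases before the start). It was found in 22.6% of 27305 promoter windows of the same length. In the ALAS1 window the sole match was TATAAA on the opposite strand, 234 to 229 bases before the start (11.1% of all windows hold it), and in the SLC25A38 window it was an E-box 44 to 39 bases before the start (6.49% of all windows). The NRF1 core and the cyclic AMP element were in none of the 8 windows, beside 1.37% and 1.77% of all windows, and the antioxidant element was in 1, that of FECH, beside 11% of all windows. A match is a run of letters and not a measured binding site.

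ALAS1 (ENSG00000023330.14), which spans chromosome 3 from 52198086 to 52214327, was at 63.8 and 66.6 CPM in the control libraries, 35.4 and 29.4 CPM at 2 h, and 28.6 and 27.8 CPM at 4 h. Every heme library lay below both controls, and both 4 h libraries lay below both 2 h libraries. The fall was 2.01-fold at 2 h (log2 -1.01, SE 0.12, 95% confidence interval -1.26 to -0.75, edgeR adjusted p = 3.97e-05). After 4 h it was 2.31-fold (log2 -1.21, SE 0.12, 95% confidence interval -1.46 to -0.95, edgeR adjusted p = 1.88e-04). The step from 2 h to 4 h was not called (log2 -0.20, 95% confidence interval -0.45 to 0.05, edgeR adjusted p = 0.222). It was called without heme 2 h replicate 2 (log2 -0.30, edgeR adjusted p = 0.0497).

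ALAS1 was the 1 gene of 16209 called lower at 4 h, and 4 were called higher. These were HMOX1 (log2 5.05), ZNF469 (log2 2.84), the glutathione synthesis gene GCLM (log2 1.05) and the heme enzyme gene CYP1B1 (log2 0.66), named here after their values were seen. By fold alone 115 genes had a lower log2 value than ALAS1 at 4 h, and none of them was called. ALAS1 had the smallest p of all genes with a negative change at 4 h in edgeR and in each of the 12 alternatives, while the number called lower ran from 1 to 10 with the alternative. DESeq2 called 9 genes lower, among them MALAT1, KRT34, KRTAP2-3 and RGS2. Without heme 4 h replicate 1 the edgeR adjusted p of ALAS1 was 0.0366, and without heme 4 h replicate 2 it was 0.0497.

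**Figure D2:**
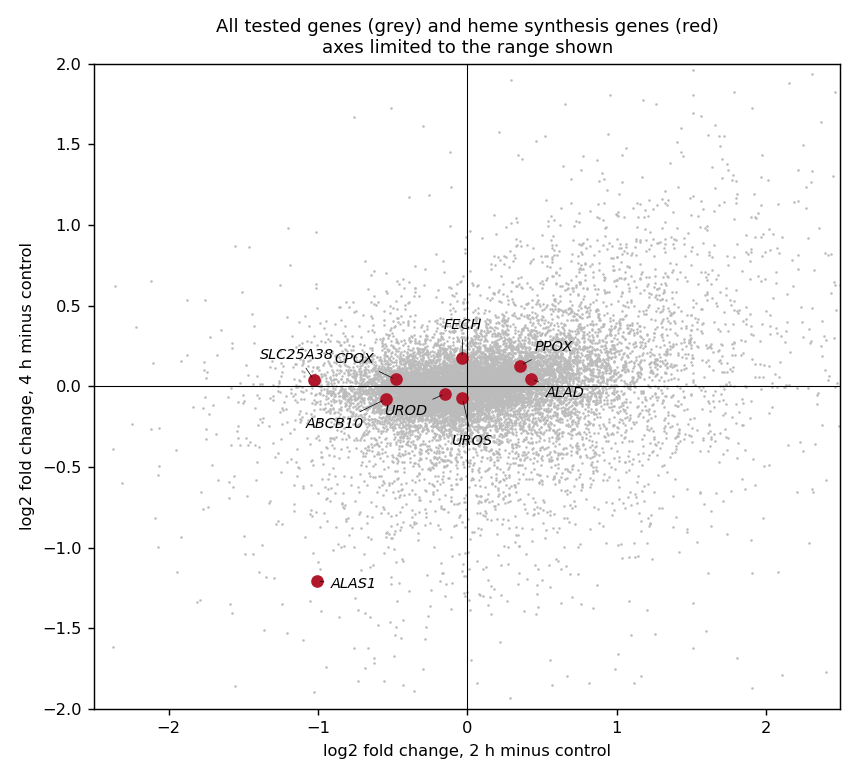
Each grey point is a tested gene and each red point a heme synthesis gene, with the log2 change at 2 h on the horizontal axis and at 4 h on the vertical axis. ALAS1 lies at -1.01 and -1.21, and the other 8 lie between -0.08 and 0.17 on the vertical axis, while genes outside the limits of the axes are not drawn.

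Counted within a library, the ratio of ALAS1 to FECH reads, the first enzyme of the chain to the last, does not rest on scaling between libraries. There were 1.01 and 1.06 ALAS1 reads per FECH read in the controls, 0.578 and 0.477 at 2 h, and 0.386 and 0.408 at 4 h. The 3 groups did not overlap in this ratio. The 2 h and 4 h libraries also lay apart per UROD, CPOX or SLC25A38 read, but they overlapped per ALAD or PPOX read. Per PPOX read there were 1.865 and 1.669 ALAS1 reads at 2 h, and 1.807 and 1.802 at 4 h. A further fall from 2 h to 4 h in such a ratio thus depended on the partner gene. Of these partners, CPOX (log2 0.52) and SLC25A38 (log2 1.06) themselves rose from 2 h to 4 h, and ALAD fell (log2 -0.38). FECH, UROD and PPOX were not called in that step. Against HMOX1, enzyme of heme breakdown, the ratio went from 6.15 and 5.84 ALAS1 reads per HMOX1 read in the controls to 0.0785 and 0.0898 at 2 h and 0.0749 and 0.0815 at 4 h. ALAS1 reads thus outnumbered HMOX1 reads in both controls and were outnumbered in all 4 heme libraries.

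The glycine carrier SLC25A38 supplies ALAS1 with its substrate inside mitochondria, and its loss causes an inherited sideroblastic anemia. The gene (ENSG00000144659.12, chromosome 3, 39383324 to 39397351) was at 75.5 and 77.3 CPM in the controls, 38.0 and 37.0 CPM at 2 h, and 77.1 and 79.8 CPM at 4 h. Both 2 h libraries were low, and the 4 h libraries overlapped with the controls. SLC25A38 fell at 2 h (log2 -1.03, SE 0.10, edgeR adjusted p = 9.44e-06). From 2 h to 4 h it rose (log2 1.06, SE 0.10, edgeR adjusted p = 5.60e-06). At 4 h its difference from control was log2 0.04 (95% confidence interval -0.17 to 0.25). Per SLC25A38 read, there were 0.845 and 0.861 ALAS1 reads in the controls, 0.931 and 0.796 at 2 h, and 0.371 and 0.349 at 4 h, so that the control and 2 h libraries overlapped and the 4 h libraries lay apart.

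ABCB10, a transporter of the inner mitochondrial membrane described as aiding the first steps of heme synthesis, is encoded on chromosome 1 from 229516582 to 229558695 (ENSG00000135776.4). It was at 43.2 and 39.6 CPM in the controls, 22 and 34.7 CPM at 2 h, and 39.0 and 39.4 CPM at 4 h. Both 2 h libraries lay below the rest, but they differed widely from each other. The fall at 2 h (log2 -0.55, SE 0.16, edgeR adjusted p = 0.0205) rested on heme 2 h replicate 1, without which it was log2 -0.26 and not called (edgeR adjusted p = 0.137). Without heme 2 h replicate 2 it was log2 -0.94, and without control replicate 1 it was not called (edgeR adjusted p = 0.0918). The rise from 2 h to 4 h was called (log2 0.47, SE 0.16, edgeR adjusted p = 0.0458). That call was lost without heme 2 h replicate 1, when the difference was log2 0.18, and without either 4 h library.

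The cytosolic enzymes did not share one course. ALAD, which joins 2 molecules of aminolevulinic acid and is the target of lead, lies on chromosome 9 from 113386317 to 113401333 (ENSG00000148218.15). It was at 16.7 and 16.2 CPM in the controls, 23.6 and 20.7 CPM at 2 h, and 15.3 and 18.7 CPM at 4 h. The 2 h libraries were above the other 4, and the 4 h libraries lay on either side of the controls. ALAD was 1.35-fold higher at 2 h than in control (log2 0.43, SE 0.14, edgeR adjusted p = 0.0276). It was lower at 4 h than at 2 h (log2 -0.38, SE 0.14, edgeR adjusted p = 0.0494). The rise was not called without control replicate 1 (edgeR adjusted p = 0.143), control replicate 2 (0.188) or heme 2 h replicate 1 (0.103). DESeq2 called the rise and did not call the later fall (DESeq2 adjusted p = 0.0547).

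UROS, which closes the porphyrin ring, is encoded on chromosome 10 from 125784980 to 125823285 (ENSG00000188690.13). It had the smallest range of log2 changes among the 9, at 50.2 and 49.9 CPM in the controls, 49.5 and 48.4 CPM at 2 h, and 47.7 and 47.5 CPM at 4 h. Its log2 difference from control was -0.03 at 2 h (95% confidence interval -0.25 to 0.19) and -0.07 at 4 h (95% confidence interval -0.29 to 0.15). UROD, which trims the side chains of the ring, is encoded on chromosome 1 from 45012147 to 45015575 (ENSG00000126088.13). It was at 82.3 and 90.2 CPM in the controls, 80.3 and 75.6 CPM at 2 h, and 82.5 and 84.6 CPM at 4 h. Its log2 difference from control was -0.15 at 2 h (95% confidence interval -0.36 to 0.07) and -0.05 at 4 h (95% confidence interval -0.26 to 0.17). Neither gene was called at either time, and the intervals leave out a 2-fold change such as that of ALAS1.

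The mitochondrial enzymes that complete the ring split 3 ways at 2 h. CPOX, which makes protoporphyrinogen, spans chromosome 3 from 98579446 to 98593723 (ENSG00000080819.7). It was at 30.7 and 29 CPM in the controls, 20.5 and 22.3 CPM at 2 h, and 31.2 and 30.3 CPM at 4 h. Only the 2 h libraries were low for CPOX. Its fall at 2 h was log2 -0.48 (SE 0.12, edgeR adjusted p = 0.00682), not called without control replicate 1 (edgeR adjusted p = 0.100). Its rise from 2 h to 4 h was log2 0.52 (SE 0.12, edgeR adjusted p = 0.0044). AC021660.3, a gene on the same strand, overlaps 5.04% of its exon bases.

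PPOX, the enzyme that oxidizes the ring to protoporphyrin, spans chromosome 1 from 161166410 to 161178013 (ENSG00000143224.17). It was at 15.1 and 13.6 CPM in the controls, 19.0 and 17.6 CPM at 2 h, and 15.8 and 15.4 CPM at 4 h. The 2 h libraries were the highest 2 of the 6. The rise at 2 h lay just inside the threshold (log2 0.36, SE 0.13, edgeR adjusted p = 0.0490), and 10 of 12 alternatives did not call it. B4GALT3, on the opposite strand, overlaps 24.3% of the exon bases of PPOX, and the strand setting of the counting is not given in the sources used here. It is thus not known whether reads in the overlap were counted for either gene or set aside as ambiguous. B4GALT3 itself was at 104 CPM in control and 104 CPM at 2 h (log2 0.0036).

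FECH, which inserts iron into the ring and carries an iron-sulfur cluster, spans chromosome 18 from 57548283 to 57586772 (ENSG00000066926.10). It was at 63.2 and 62.7 CPM in the controls, 61.2 and 61.6 CPM at 2 h, and 74.0 and 68.1 CPM at 4 h. The 4 h libraries were the highest of the 6, but the difference from control was not called (log2 0.17, 95% confidence interval -0.04 to 0.39, edgeR adjusted p = 1.0). Between 2 h and 4 h it was log2 0.21 (95% confidence interval -0.0058 to 0.42, edgeR adjusted p = 0.135).

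**Figure D3:**
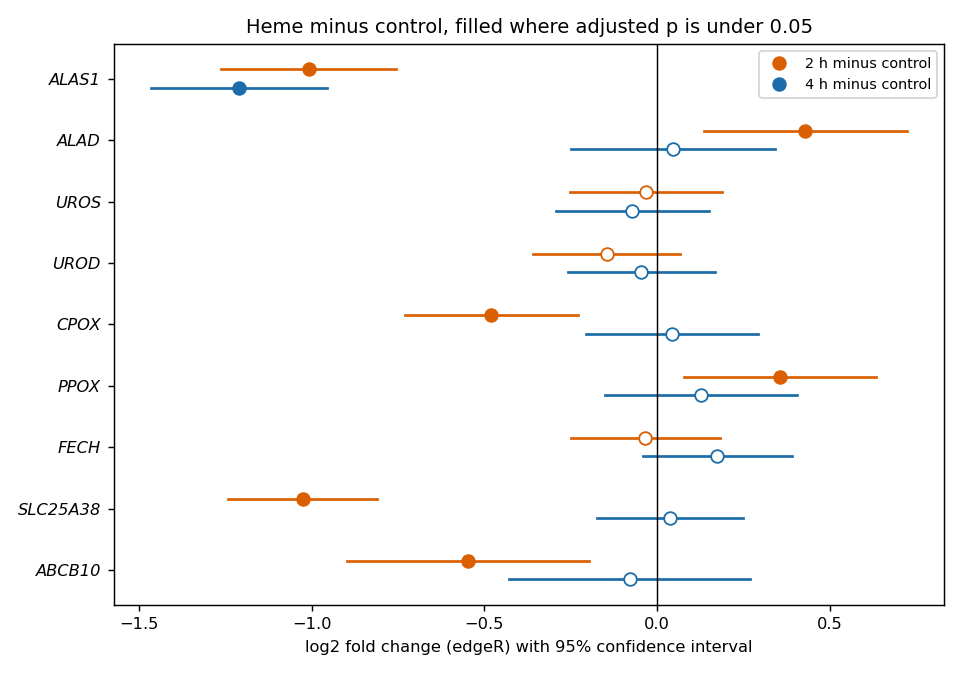
Points are log2 changes against control at 2 h and 4 h with bars for the 95% confidence interval, filled where the gene was called. At 2 h the values ran from -1.03 (SLC25A38) to 0.43 (ALAD), and at 4 h the bar of ALAS1 alone lies away from 0.

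From 2 h to 4 h, SLC25A38, CPOX and ABCB10 rose, ALAD fell, and ALAS1, UROS, UROD, PPOX and FECH were not called. Among all genes 14.0% were called higher and 14.1% lower in this comparison. The libraries of the 2 times did not overlap for any of the 9 genes, beside 62.3% of all genes. Thus 3 of the 4 genes that were lower at 2 h had risen by 4 h. Their differences from control at 4 h were within log2 -0.08 and 0.04, and ALAS1 was the exception. The 4 were picked for low 2 h libraries, which also enter the test of the rise, so a rise was favoured in advance. Among all tested genes, 15.8% were called lower than control at 2 h and 0.00617% at 4 h. Losing that call by 4 h was thus general and not particular to these 3 genes.

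The order of the levels needs a scale per length, since longer RNAs give more reads. Per kb of all annotated exons, the controls ranked UROD (29.7 CPM per kb), SLC25A38 (28.2), ALAS1 (25.7), FECH (14.1), ABCB10 (9.73), CPOX (9.24), UROS (5.25), ALAD (3.30) and PPOX (3.11). The libraries of neighbours overlapped for UROD and SLC25A38, for ABCB10 and CPOX, and for ALAD and PPOX. At 2 h, SLC25A38 (13.8 CPM per kb), FECH (13.7) and ALAS1 (12.8) overlapped in turn, and at 4 h ALAS1 (11.1) stood at rank 4, below FECH (15.9). The length chosen changes the order, most of all for UROS, whose 22 annotated transcripts cover 9532 exon bases while its principal transcript has 1371. Per kb of the principal transcript UROS stood second in the controls (36.5 CPM per kb), behind UROD (66.4) and just ahead of SLC25A38 (35.6), and ALAS1 at rank 4 (26.8). On this scale PPOX (8.22) stood above ALAD (5.19) in the controls without overlap. UROD overlapped with no neighbour there, and at 4 h ALAS1 (11.6) stood at rank 5.

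**Figure D4:**
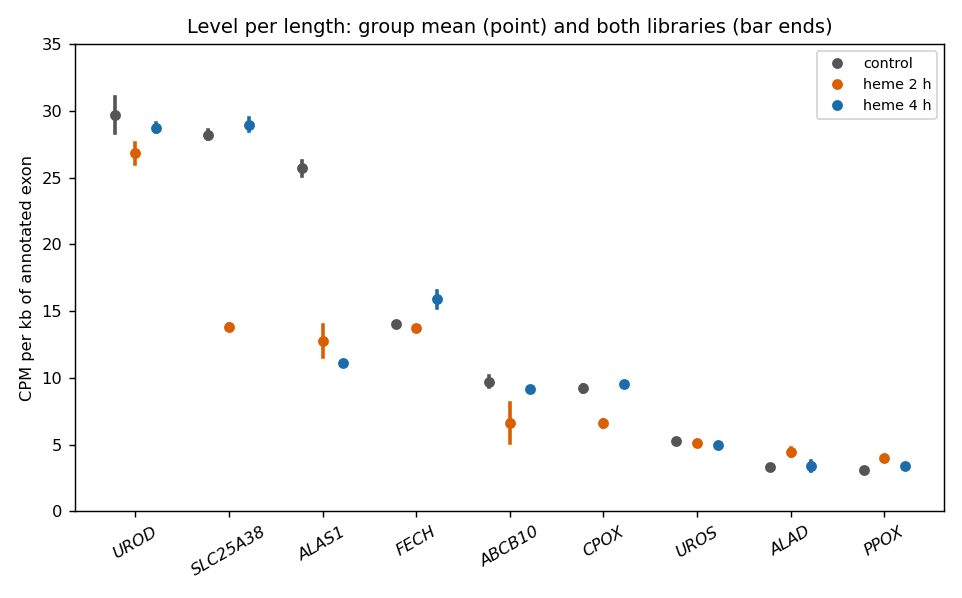
Points give the group mean and bar ends the 2 libraries, in CPM per kb of annotated exon, on an axis from 0, with the genes in control order. ALAS1 dropped from 25.7 in the controls to 12.8 at 2 h, where its libraries overlapped with those of FECH, and 11.1 at 4 h, where both lay below FECH.

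The genes most like ALAS1 over the 6 libraries were found by the Euclidean distance between log2 CPM values, each gene centred on its control mean, among 10649 genes with a mean of at least 5 CPM. They were the nuclear noncoding RNA MALAT1 (distance 0.942), KRTAP2-3 (0.971), KRT34 (1.05), RGS2 (1.09) and MB21D2 (1.22). MALAT1 was at 262 CPM in control, 143 at 2 h and 172 at 4 h. RGS2, a regulator of G protein signals, went from 52.0 to 36.0 and 30.1 CPM, and of the 5 genes it alone was lower at 4 h than at 2 h by group mean. SLC25A38 had closer neighbours, namely DCAF4 (distance 0.0822), CHST10 (0.165), the stress factor gene DDIT3 (0.167), POLR1E, a subunit of RNA polymerase I (0.174), and MLKL (0.179). DCAF4 was at 75.0 CPM in control, 37.6 at 2 h and 76.7 at 4 h. None of the 9 heme synthesis genes was among the nearest 5 of either, and ALAS1 and SLC25A38 were 1.75 apart on this scale.

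Among factors described as controlling the ALAS1 gene, 2 of 14 tested were higher at 2 h and 3 lower (median log2 0.0053), and 9 were not called. These counts lie near the shares over all tested genes at 2 h, 15.9% higher and 15.8% lower. PPARGC1B, a coactivator of mitochondrial genes, was at 54.8 and 54.3 CPM in the controls, 6.84 and 9.81 at 2 h, and 57.6 and 63.3 at 4 h. It thus fell at 2 h (log2 -2.71, SE 0.15, edgeR adjusted p = 7.50e-08) and was log2 0.15 from control at 4 h, when ALAS1 was log2 -1.21. NRF1, a transcription factor of respiratory genes, fell at 2 h (log2 -0.41, SE 0.12), as did GABPB1, a subunit of nuclear respiratory factor 2 (log2 -0.39, SE 0.11). The corepressor NCOR1 (log2 0.42, SE 0.09) and the early response factor EGR1 (log2 0.47, SE 0.13) rose. The coactivator PPARGC1A had 0 counts in every library. At 4 h none of the 14 was called by edgeR or DESeq2, and 1, NR1D1, had an unadjusted edgeR p under 0.05.

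Of 11 genes that feed the first step, 2 were higher at 2 h, 1 was lower and 8 were not called (median log2 -0.06), beside 15.9% of all tested genes higher and 15.8% lower. The list was thus called no more often than genes in general. SLC6A9, a glycine transporter of the cell surface, was at 17.9 and 21.7 CPM in the controls, 47.9 and 44.8 at 2 h, and 19.5 and 24.3 at 4 h. It rose 2.34-fold at 2 h (log2 1.23, SE 0.14, edgeR adjusted p = 3.00e-05), while the mitochondrial glycine carrier SLC25A38 fell. SHMT2, which converts serine to glycine in mitochondria, rose (log2 0.32, SE 0.10), and SUCLA2, a subunit of succinyl-CoA synthetase, fell (log2 -0.46, SE 0.14). At 4 h none of these 11 was called by edgeR or DESeq2, and none had an unadjusted edgeR p under 0.05.

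Of 3 mitochondrial proteases and chaperones of ALAS protein, the unfoldase CLPX fell at 2 h (log2 -0.38, SE 0.12) and the protease LONP1 rose (log2 0.31, SE 0.10), while CLPP was not called. Of 13 tested carriers and partners of porphyrins and heme, the plasma membrane heme exporter FLVCR1 (log2 -0.78, SE 0.14) and the heme-binding PGRMC1 (log2 -0.31, SE 0.10) fell at 2 h. SLC48A1, which moves heme out of lysosomes, rose (log2 0.62, SE 0.12), and the median of the list was log2 -0.13. These lists are set against the same shares of all genes at 2 h, 15.9% higher and 15.8% lower, and 10 of the 13 carriers and partners were not called. In both lists none was called at 4 h by edgeR or DESeq2, and none had an unadjusted edgeR p under 0.05.

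Iron-sulfur cluster assembly, on which FECH depends, had 5 of 15 tested genes lower and 0 higher at 2 h (median log2 -0.23), beside 15.8% of all tested genes lower and 15.9% higher, a median of 0.02 over all genes, and 10 of the 15 not called. Among them were BOLA3 (log2 -0.51, SE 0.11), ISCA1 (log2 -0.45, SE 0.11), the ferredoxin FDX1 (log2 -0.44, SE 0.11) and the chaperone HSPA9 (log2 -0.28, SE 0.09). DESeq2 also called 0 higher, and 0 were higher at an unadjusted edgeR p under 0.05. From 2 h to 4 h, 4 of the 15 rose, beside 14.0% of all tested genes. At 4 h none was called against control by edgeR or DESeq2, with 1, IBA57, at an unadjusted edgeR p under 0.05. A list of heme proteins and their partners had 17 tested genes, of which 14 were not called at 2 h. Cytochrome c, CYCS, fell at 2 h (log2 -0.63, SE 0.13), and SUOX (log2 0.45, SE 0.15) and CYP1B1 (log2 1.16, SE 0.10) rose. CYP1B1 was at 341 and 327 CPM in the controls, 698 and 793 at 2 h, and 576 and 484 at 4 h. It was the 1 gene of this list called at 4 h (log2 0.66, SE 0.10, edgeR adjusted p = 0.0378).

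**Figure D5:**
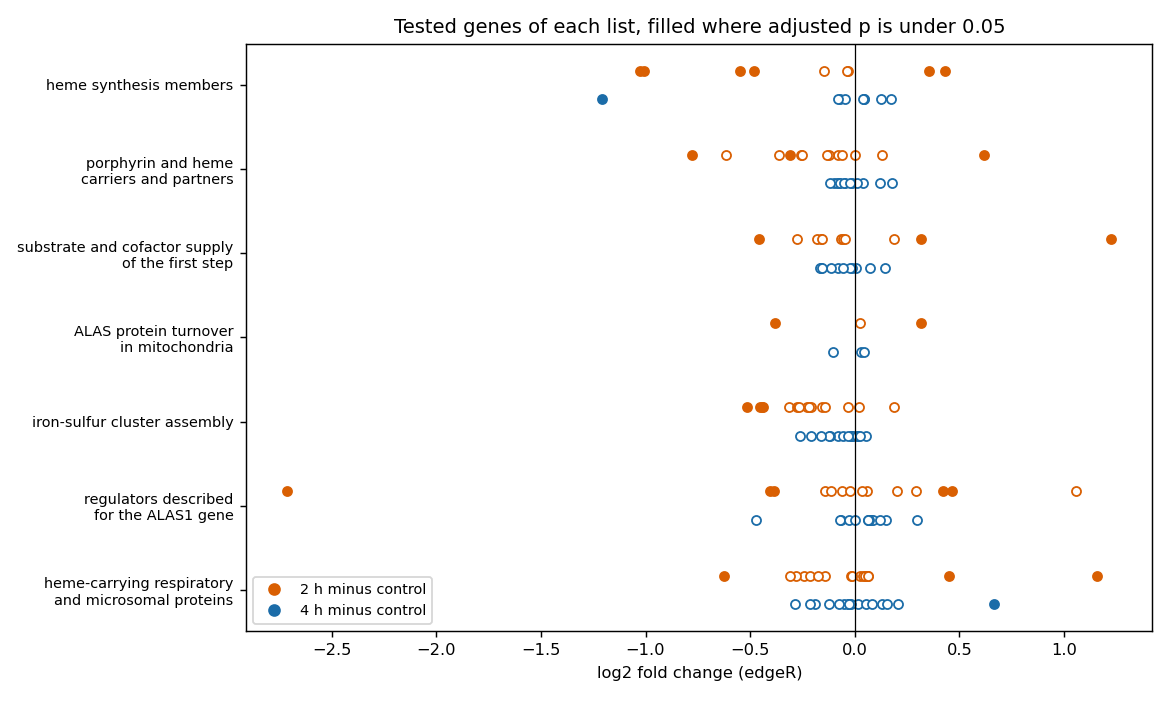
Each point is a tested gene of the list named at the left, at its log2 change against control at 2 h (orange) or 4 h (blue), filled where called. At 4 h, ALAS1 at -1.21 and CYP1B1 at 0.66 are the filled points.

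Some cell type markers moved at 2 h as well, EPCAM being called lower and CDH1, HOXB13, TMPRSS2, CD14 and COL1A1 higher, and none was called at 4 h. The 6 luminal prostate markers summed to 21.9 and 22.5 CPM in the controls, 30.2 and 28.8 at 2 h, and 21.9 and 19.8 at 4 h. The 6 fibroblast markers, mostly COL1A1, summed to 26.7 and 29.2, then 48.6 and 41.5, then 25.4 and 32.6 CPM, and the 6 leukocyte markers to between 43.3 and 53.7 CPM throughout. Reads outside annotated genes were between 5.48% and 6.88% of a library, with the ranges of the groups overlapping. The part of these in the changes of the heme synthesis genes was not tested.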

How the data were processed

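Total RNA came from a Trizol extraction and went into an Illumina TruSeq preparation, per the labels' protocols. The authors deposited unnormalized read counts for each symbol in 6 tables, 1 a library, each closed by the summary lines that HTSeq writes. Trimmomatic, STAR, SAMtools, deepTools and hg38 are named in the submitters' processing notes. Versions, annotation release and strand setting were not given in the sources used here. The 5 summary lines stayed out of all sums. Their line for reads aligned to several places is 0 in each table, reads without a feature were 5.48% to 6.88% and ambiguous reads 4.23% to 4.48%.

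Counts were tested with edgeR 4.0.16 in R 4.3.3 across all genes: TMM scaling, filterByExpr (minimum count 10), 1 quasi-likelihood fit of the 6 libraries with 3 residual degrees of freedom, two-sided, Benjamini-Hochberg adjusted. The test was checked on simulated data. Alternatives were DESeq2 1.42.0, its size factors, no filter, a replicate block, only the compared groups, a threshold of 1.5-fold and leaving out each library. Replicates differed by more than sampling noise (mean chi-square per gene 9.11 to 34.2). Coordinates and exon lengths are from GENCODE 29 on GRCh38, and promoters from RefSeq on GRCh38.p14. The 9 genes and all lists were chosen with earlier results of these data known. The rule was to name every gene of a list called against control. Genes alike in pattern were the nearest 5, with 0.5 CPM added before the log. A count of 0 allows up to 3 counts, or 0.0565 CPM in the shallowest library, for counting error only. Some genes of the pathway and lists, and the planned protein motif, are not reported here.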

Additional observations from a re-analysis of the deposited data

Results flagged for a closer look

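Levels differed between 2 h and 4 h of heme, by edgeR's test of 4 h against 2 h, for 4 of the 9 genes. Without controls for each time, heme and time cannot be told apart here. The 4 h minus 2 h difference was log2 1.06 for SLC25A38, 0.52 for CPOX, 0.47 for ABCB10 and -0.38 for ALAD. For SLC25A38 the difference was called in all 12 alternatives, for CPOX in 11, for ABCB10 in 8 and for ALAD in 2. The spread within a group could not be checked for single outlying libraries with 2 libraries per group.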

How the results depend on the processing

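ALAS1 and SLC25A38 were called lower at 2 h in all 12 alternatives, and ALAS1 at 4 h in all 12 (log2 -1.24 to -1.18, adjusted p from 4.18e-18 to 0.0497). No called change of a member reversed. At 2 h, the count of members called higher was 1 with DESeq2 size factors, no filter, the replicate block or only the compared groups, PPOX being lost each time. Beyond 1.5-fold, 0 members were called higher and 2 lower at 2 h (412 and 121 of all genes), 2 of all genes higher at 4 h, and 1 member higher and 0 lower from 2 h to 4 h (158 and 385 of all genes). From 2 h to 4 h the count of members lower was 0 with DESeq2, its size factors, no filter, the replicate block or only the compared groups, ALAD being lost. All genes called lower at 4 h numbered 9 with DESeq2, 6 without the filter, 2 with the replicate block and 8 with only the compared groups. Leaving out a library, members called at 2 h ran from 0 to 2 higher and from 2 to 4 lower (1208 to 2876 of all genes higher, 1113 to 3378 lower). All genes called lower at 4 h ran from 1 to 10. From 2 h to 4 h, 0 to 2 members were lower and 1166 to 3196 of all genes were higher, 1033 to 2623 lower. The correlation of replicate differences over all tested genes was -0.09, 0.07 and -0.02 between the 3 pairs of groups. These low values showed no common shift by replicate number, but they cannot exclude a shared day or preparation. The cause of these changes was not tested. Leaving out 1 of 2 libraries assumes that the remaining one varies like the other groups. Each member had at least 732 reads in every library.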
